A study of Homo sapiens with 6 samples.

Results

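The ADAM, ADAMTS and ADAMTSL genes encode a family of metalloproteases and their relatives. They were taken here as every gene symbol made of ADAM, ADAMTS or ADAMTSL followed by digits only. This takes in ADAM5, annotated as a transcribed pseudogene, and ADAM6, whose listed transcript is noncoding. The rule found 46 of the 23618 symbols in the deposited expression tables: 22 ADAM, 19 ADAMTS and 5 ADAMTSL genes, with 81 transcripts in MDA-MB-231 and 4 in HMLER. The question was how their mRNA levels differed between untreated cells and cells given decitabine (5-aza-2'-deoxycytidine, DAC), an inhibitor of DNA methylation.

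RNA-seq of polyadenylated RNA was made from 2 human mammary lines. MDA-MB-231 is an established breast cancer line, with 1 untreated and 1 DAC library. HMLER cells are human mammary epithelial cells transformed in vitro, with 2 untreated and 2 DAC libraries that the authors merged into 1 value per condition. DAC-treated cells of both lines received 10 µM DAC every day and were harvested at 72 h, and the controls were labelled as having no treatment. RNA from independent extractions was pooled before sequencing. The tables used here give 1 value per condition in each line, so no test between conditions was run and every difference below has no replicate check. The separate HMLER libraries were not used here.

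ADAM proteins sit in the cell membrane, where those with an active metalloprotease domain cut the outer parts of neighbouring membrane proteins free, a process called shedding. ADAMTS proteins are secreted and cut components of the extracellular matrix such as proteoglycans and procollagens, whereas the ADAMTSL proteins lack the protease domain and bind to matrix microfibrils. Most of the proteases are made as inactive precursors that proprotein convertases trim, and the TIMP proteins and RECK inhibit them.

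Values are FPKM (read fragments normalized to transcript length and to library size), summed over the transcripts of a symbol. A gene was called higher or lower when the ratio of DAC to untreated FPKM passed 2-fold, without a pseudocount, with 1 FPKM or more in at least 1 of both libraries. Bounds given in parentheses after a value are those that Cuffdiff wrote beside it for that library. The spacing of the low FPKM values also gave what 1 read was worth, so that reads per gene could be recovered, for 43113691 reads on transcripts in the untreated MDA-MB-231 library and 35241553 in the DAC library. In the untreated library the markers fixed for MDA-MB-231 were mostly at the level this line is known for. VIM was at 3066 FPKM and ESR1, PGR and CDH1 were listed at 0, whereas ERBB2 and EPCAM were present at 11.8 and 7.90 FPKM. SPARC was low at 2.09 FPKM. After DAC the markers VIM, CD44, LGALS1 and AXL were lower, with VIM at 1134 FPKM, while SPARC was higher at 11.3 FPKM. Leukocyte, endothelial, erythroid and hepatocyte markers stayed at or below 0.229 FPKM in both libraries, and the HMLER table did not allow this check because it lists only transcripts that were higher after DAC. A label gives the untreated MDA-MB-231 library another cell line number (MDA-MB-232), and its title was followed.

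Because DAC inhibits the methylation of CG pairs, the bases upstream of an annotated start site are shown first for 4 members whose values differed between conditions. The sequences are the 250 bases before the start in the RefSeq promoter table, located by exact match in GRCh37 (the same assembly as hg19), 5′ to 3′ on the strand of the gene, with every CG pair in capitals. That start is not always the one of the deposited locus. The ADAM19 window ends at the deposited locus, while those of ADAMTS6 and ADAMTS14 end 43 and 297 bases before it. The last 81 bases of the ADAM12 window lie inside its deposited locus. ADAM19 was the member called lower in MDA-MB-231 and ADAMTS6 was listed in HMLER, while ADAM12 and ADAMTS14 were chosen after their values were seen, as low members with a large ratio. They lie at chr5:64777748-64777997 (ADAMTS6), chr5:157002784-157003033 (ADAM19) and chr10:128077047-128077296 (ADAM12), all on the minus strand, and at chr10:72432012-72432261 on the plus strand (ADAMTS14).
ADAMTS6: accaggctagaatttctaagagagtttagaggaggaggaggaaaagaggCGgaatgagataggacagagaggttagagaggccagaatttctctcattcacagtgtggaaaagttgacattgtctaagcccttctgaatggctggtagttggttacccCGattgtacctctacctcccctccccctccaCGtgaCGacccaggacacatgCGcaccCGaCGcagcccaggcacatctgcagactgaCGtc
ADAM19: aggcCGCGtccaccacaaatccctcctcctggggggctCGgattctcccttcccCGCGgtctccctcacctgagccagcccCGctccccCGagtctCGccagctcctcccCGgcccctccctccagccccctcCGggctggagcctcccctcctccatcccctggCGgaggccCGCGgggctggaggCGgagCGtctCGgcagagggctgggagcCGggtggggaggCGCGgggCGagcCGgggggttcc
ADAM12: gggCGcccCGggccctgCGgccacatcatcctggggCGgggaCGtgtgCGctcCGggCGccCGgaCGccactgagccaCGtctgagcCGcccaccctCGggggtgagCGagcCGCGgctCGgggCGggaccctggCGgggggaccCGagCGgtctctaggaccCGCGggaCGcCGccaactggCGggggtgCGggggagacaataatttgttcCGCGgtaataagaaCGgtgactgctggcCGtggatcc
ADAMTS14: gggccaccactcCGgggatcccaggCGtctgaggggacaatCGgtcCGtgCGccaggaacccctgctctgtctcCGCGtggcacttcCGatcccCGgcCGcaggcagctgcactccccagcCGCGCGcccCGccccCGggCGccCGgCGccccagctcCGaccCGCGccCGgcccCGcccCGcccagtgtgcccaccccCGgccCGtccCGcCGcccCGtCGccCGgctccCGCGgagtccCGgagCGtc

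The 4 windows differed widely in CG content. ADAMTS6 held 8 CG pairs, with an observed-to-expected CG ratio of 0.466 given its C and G content, and ADAM19 held 21 with a ratio of 0.586. ADAM12 held 31 (ratio 0.927) and ADAMTS14 held 35 (ratio 0.921). Promoter entries were found for 29 of the 46 members, and they were denser in CG than promoters at large. The first listed promoter of each symbol was used. The median was 25 CG pairs per window against 11 over all 27305 symbols with an entry. That background was not limited to protein-coding or measured genes, while the members with an entry are all protein-coding. Whether gene type accounts for the differences in CG content and motifs was not tested. The ratio was above 0.6 in 22 of 29 members (75.9%) against 47.4% of all symbols with an entry. The GC box GGGCGG, searched on both strands, occurred in 22 of 29 (75.9%) against 42.3% of all, and the letters TATAAA, also on both strands, in 2 of 29 (6.90%) against 11.1% of all. Both motif searches describe letters in this window and no binding. No promoter entry was found for ADAMTS9, ADAMTS1, ADAMTS4 or ADAM33. No methylation value of these windows entered the comparison.

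In MDA-MB-231, 16 of the 46 members reached 1 FPKM in at least 1 library and 30 did not. One group of membrane sheddases and a single secreted protease made up most of the family's mRNA. The 6 members with the highest levels, ADAM15, ADAM10, ADAM9, ADAMTS6, ADAM17 and ADAM19, held 80.4% of the family's summed FPKM in the untreated library and 78.7% in the DAC library. The family sum was 241.7 FPKM untreated and 214.1 FPKM after DAC, a ratio of 0.886. The sum over all transcripts was lower after DAC too, at 589238 FPKM untreated and 480455 FPKM after DAC. In such bulk samples fewer cells of a kind and less RNA per cell cannot be told apart. The plot of member levels shows this order.

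**Figure D1:**
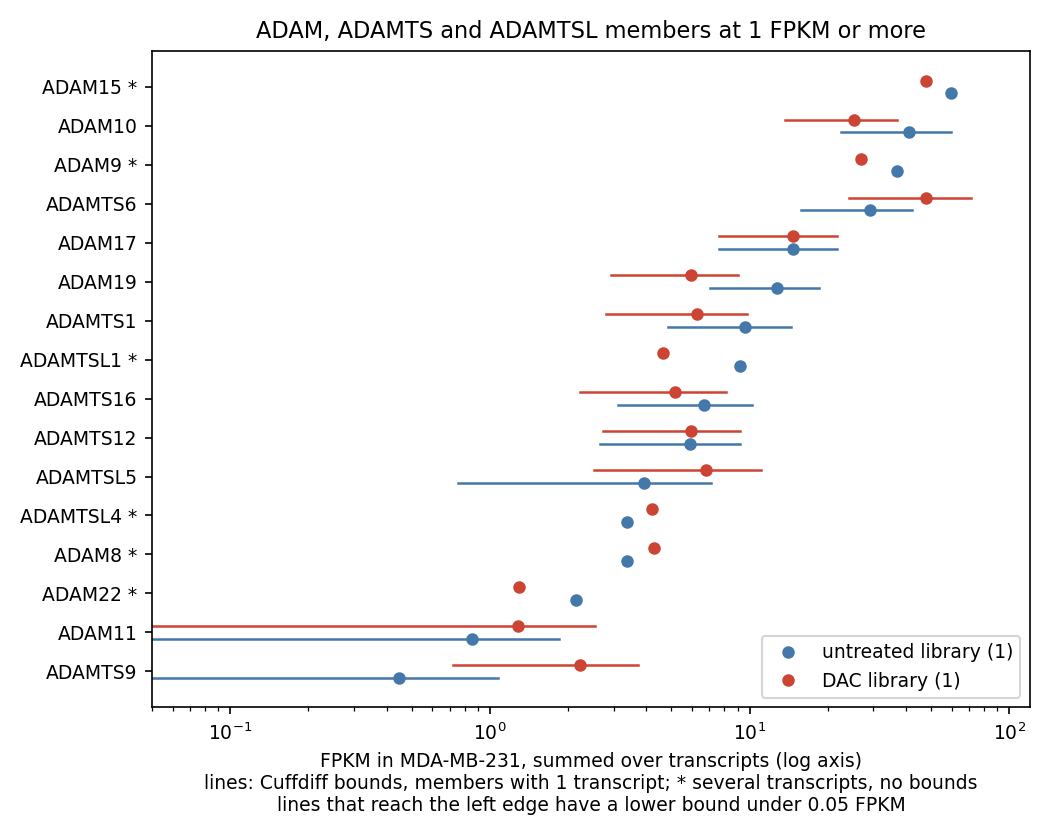
FPKM of the 16 members at 1 FPKM or more in MDA-MB-231 on a log axis, untreated (blue) and DAC (red), 1 library each, with Cuffdiff bounds as lines for members with 1 transcript. ADAM15, ADAM10, ADAM9 and ADAMTS6 lie highest, ADAMTS9 and ADAM19 are the members more than 2-fold apart, and every pair of drawn bounds overlaps.

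The only member called higher was ADAMTS9 and the only one called lower was ADAM19, each 1 of 16 (6.25%). Over all 12525 symbols that passed the same filter, 10.8% were called higher and 4.82% lower, so the member called higher is below the background share and the member called lower is close to it. The other 14 members that passed had ratios from 0.504 to 1.72. Of the 16, 8 had a ratio above 1 and 8 below, and the same split of 8 and 8 was found after dividing by the median ratio of all symbols. That median was 0.912 over 11292 symbols at 1 FPKM or more in both libraries (-0.13 on the log2 scale). The median change of the 16 members was -0.15 on the scale log2((DAC + 1)/(untreated + 1)), against -0.08 over all symbols past the filter. No member had Cuffdiff bounds that did not overlap between conditions, which 1.43% of the symbols had.

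**Figure D2:**
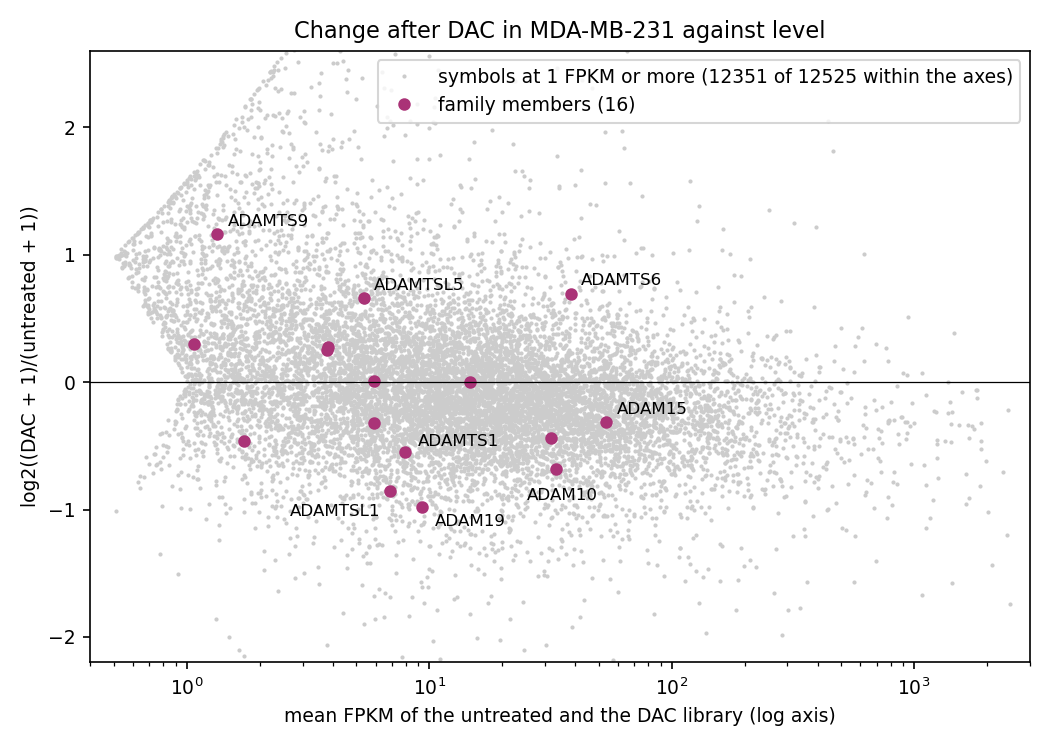
Change after DAC, log2((DAC + 1)/(untreated + 1)), against mean FPKM on a log axis for the 16 members (purple) and for 12351 of the 12525 symbols past the filter (grey, those within the axes). The members lie inside the grey cloud, from ADAM19 and ADAMTSL1 at the bottom to ADAMTS9 at the top.

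Among the 12 membrane-bound ADAM proteases, 6 passed the filter. The sum over all 12 was 169.2 FPKM untreated and 125.7 FPKM after DAC, a ratio of 0.743. This ratio depends on the scaling. With each library scaled by its own reads, the 6 ran from 0.568 (ADAM19) to 1.54 (ADAM8), with ADAM15 at 0.975. ADAM15, whose disintegrin domain carries an integrin-binding motif, had the highest level of the family in both libraries. It had 59.7 FPKM untreated and 47.9 FPKM after DAC, a ratio of 0.802. Of its 12 listed transcripts NM_003815 carried most of the level, at 47.3 FPKM (22.6 to 72.1) untreated and 35.8 FPKM (16.5 to 55.2) after DAC. NM_207195 stood at 4.02 and 4.21 FPKM, and NM_207196 at 3.63 and 1.11 FPKM. Among the minor forms, NM_001261464 had 0.643 and 1.79 FPKM, NR_048579 had 1.18 and 1.98 FPKM, NR_048577 had 1.08 and 0.555 FPKM, and NM_207197 had 0.832 and 1.0 FPKM. Their bounds were wide and all started at 0, so reads were not firmly divided between these forms. An exon of ADAM15 overlaps DCST1 in the annotation.

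ADAM10, the sheddase of Notch receptors, cadherins and the amyloid precursor protein, lies on chromosome 15 from 58881008 to 59041990 on the minus strand. It had 41.2 FPKM (22.5 to 59.9) untreated and 25.3 FPKM (13.7 to 36.9) after DAC. The ratio of 0.614 rested on 6540 and 3990 reads. ADAM9, another membrane sheddase, had 36.8 FPKM untreated and 27.0 FPKM after DAC, a ratio of 0.732, and nearly all of it came from NM_003816 at 36.3 and 27.0 FPKM. Both values of ADAM9 lie within the bounds of ADAM10 in the same library, so the order of these neighbours cannot be set. ADAM17, known as the enzyme that releases tumour necrosis factor, was at 14.6 FPKM (7.65 to 21.6) untreated and 14.7 FPKM (7.66 to 21.7) after DAC. Its ratio was 1.0, the nearest to 1 of the 16 members, with 2091 and 2083 reads. ADAM17 is also overlapped by antisense IAH1 and ADAM9 by antisense TM2D2, and without a stated strand reads of such partners cannot be told apart.

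ADAM19, a membrane protease also called meltrin beta that can cut neuregulin, was the member called lower. It stands on chromosome 5 from 156822542 to 157002783 on the minus strand (GRCh37). It had 12.8 FPKM (7.02 to 18.5) untreated and 5.97 FPKM (2.94 to 9.0) after DAC, 2.14-fold lower, with 3421 and 1587 reads. The bounds overlapped between 7.02 and 9.0 FPKM. The call lay near the threshold: divided by the median ratio of all symbols its ratio was 0.512, and the call ended. Its exons overlap CYFIP2 on the other strand. ADAM8, a protease best known from leukocytes, had 3.36 FPKM untreated and 4.27 FPKM after DAC, a ratio of 1.27.

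Of the 8 ADAM proteins without the protease motif, only ADAM22 and ADAM11 passed the filter. ADAM22, a neuronal receptor for the secreted protein LGI1, had 2.15 FPKM untreated and 1.3 FPKM after DAC, a ratio of 0.601. Its transcripts differed in direction: NM_021721 stood at 1.52 and 0.840 FPKM, NM_016351 at 0.633 and 0.00644 FPKM, and NM_021722 at 0 and 0.449 FPKM. NM_016351 and NM_021722 are 9226 and 9313 bases long, and the bounds of each pair started at 0 in both libraries, so how the reads were divided between them is uncertain. ADAM11 had 0.855 FPKM (0 to 1.84) untreated and 1.28 FPKM (0.0171 to 2.55) after DAC, a ratio of 1.5.

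The secreted ADAMTS proteases that cut the proteoglycans aggrecan or versican were 7, of which ADAMTS1 and ADAMTS9 passed the filter. ADAMTS9, which cuts versican, was the only member called higher in MDA-MB-231 and lies on chromosome 3 from 64501330 to 64673676 on the minus strand. It had 0.446 FPKM (0 to 1.08) untreated and 2.23 FPKM (0.722 to 3.74) after DAC, a ratio of 5.00. These values rest on 135 and 671 recovered reads. The bounds overlapped between 0.722 and 1.08 FPKM, so the value after DAC was above the untreated bounds while its lower bound was not. ADAMTS9 passed the filter only through the DAC library, so it had to differ, and it was not called with 1 FPKM required in both libraries or with 5 FPKM in at least 1. It shares exonic bases with the antisense RNA ADAMTS9-AS1, and reads of both cannot be told apart. Another antisense RNA of the locus, ADAMTS9-AS2, had 0.209 FPKM untreated and 0.385 FPKM after DAC.

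ADAMTS1, a protease of aggrecan and versican on chromosome 21 (28208074 to 28217728, minus strand), was lower after DAC in MDA-MB-231 without passing the threshold. It had 9.65 FPKM (4.87 to 14.4) untreated and 6.28 FPKM (2.79 to 9.77) after DAC, a ratio of 0.651, with 1829 and 1183 reads.

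ADAMTS6, a secreted protease whose substrates are less well known, had the second highest level of the family after DAC. The gene lies on chromosome 5 from 64444565 to 64777747 on the minus strand, and the window printed above precedes its start. It had 29.1 FPKM (15.8 to 42.3) untreated and 47.7 FPKM (24.3 to 71.1) after DAC, a ratio of 1.64, with 8750 and 14261 reads. After DAC its level was nearly that of ADAM15, and each lay within the bounds of the other's leading transcript. Of the remaining ADAMTS proteases, ADAMTS16 had 6.68 and 5.16 FPKM (ratio 0.772). ADAMTS12, which cuts the cartilage protein COMP, had 5.90 and 5.96 FPKM (ratio 1.01).

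Of the 5 ADAMTS-like genes, 3 passed the filter. ADAMTSL1, also called punctin, lay just outside the threshold on the lower side, at 9.18 FPKM untreated and 4.62 FPKM after DAC (ratio 0.504, 2935 and 1482 reads). ADAMTSL5, a microfibril-binding protein, lay nearest the threshold on the higher side, at 3.93 FPKM (0.751 to 7.12) untreated and 6.78 FPKM (2.51 to 11.1) after DAC, a ratio of 1.72 with 445 and 762 reads. Its exons overlap antisense PLK5. ADAMTSL4, which binds fibrillin microfibrils, had 3.38 and 4.20 FPKM (ratio 1.24). The exons of ADAMTSL4 overlap AL356356.1 and, on the other strand, MCL1, ADAMTSL4-AS1 and ADAMTSL4-AS2.

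The members at very low level in MDA-MB-231 were mostly higher after DAC, many by a few reads. All 30 members that did not pass stayed at or below 0.679 FPKM. Of them, 5 were listed at 0 in both libraries (ADAM2, ADAM6, ADAM7, ADAM18 and ADAMTSL2), which held for 45.3% of all symbols under 1 FPKM and 21.3% of all symbols. Another 23 had a higher FPKM after DAC and 2 a lower one, against 44.5% and 10.2% of all symbols under 1 FPKM. Among the 25 that were detected, 92.0% had a higher FPKM after DAC, against 81.3% higher and 18.7% lower of all detected symbols at this level. In whole reads, 21 had more after DAC, 2 had fewer and 2 (ADAM21 and ADAMTS2) had equal numbers, so 84.0% had more, against 77.3% with more and 18.3% with fewer of such symbols. Most other symbols of this level were thus higher after DAC too, and the members had 444 reads in all untreated and 738 after DAC (1.66 times) where all such symbols had 1.78 times as many. The detected low members had longer transcripts, with a median of 4332 bases against 2427. Of the 25, 14 had at most 10 reads in both libraries.

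**Figure D3:**
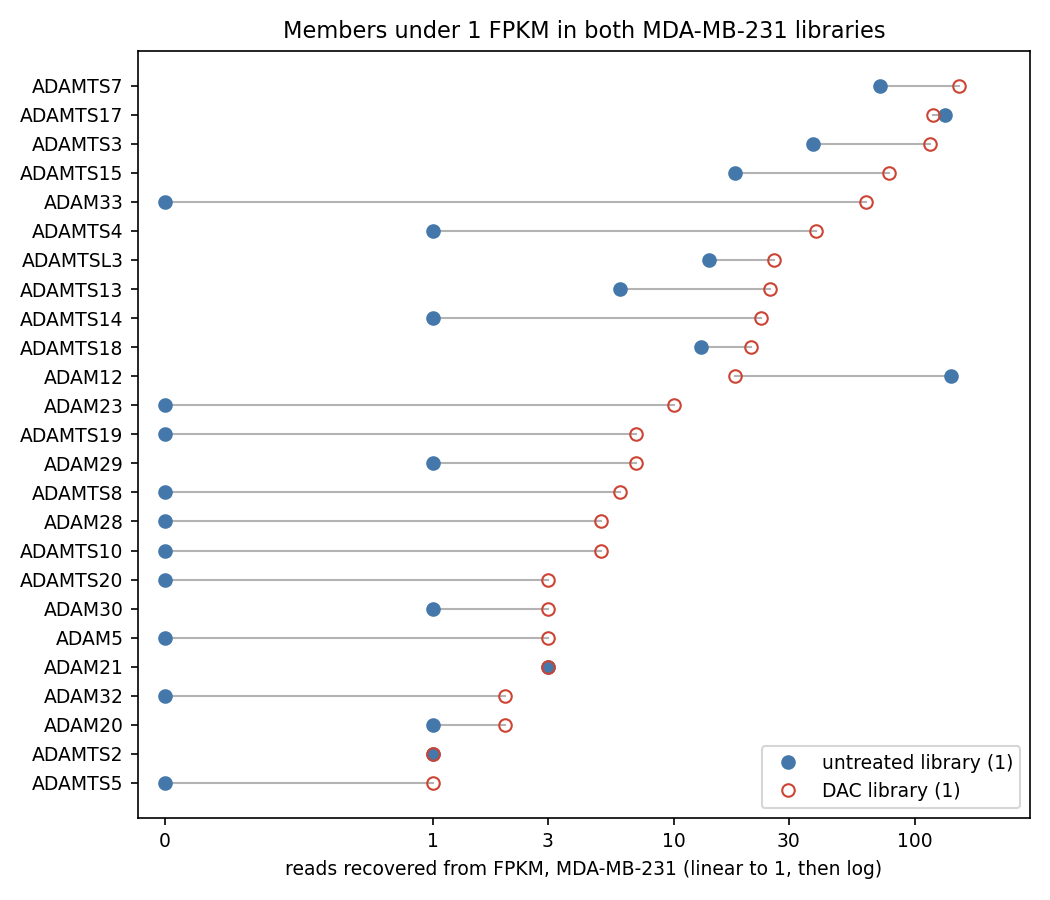
Recovered reads of the 25 detected members under 1 FPKM in MDA-MB-231, untreated (filled blue) and DAC (open red), 1 library each, on an axis that is linear to 1 and logarithmic above. ADAM33 and ADAMTS4 start at 0 and 1 reads and lie at 63 and 39 after DAC, while ADAM12 lies at 141 untreated and at 18 after DAC.

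The clearest of these were ADAM33, ADAMTS4, ADAMTS14, ADAMTS15, ADAMTS3 and ADAM12, named after their values were seen. ADAM33, a membrane protease known as an asthma susceptibility gene, had 0 reads untreated and 63 after DAC (0 and 0.449 FPKM), at least 21.0-fold higher when the untreated library is set at a floor of 3 reads. ADAMTS4, the first aggrecanase described, had 1 read untreated and 39 after DAC (0.00568 and 0.223 FPKM), a ratio of 39.0 with an exact 95% interval from 6.60 to 1579. ADAMTS14 had 1 and 23 reads, a ratio of 23.0 with an interval from 3.73 to 947. Intervals and floors cover counting error only and compare these libraries, not the conditions.

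ADAMTS14, ADAMTS3 and ADAMTS2 are the procollagen N-propeptidases, which trim the amino end of fibrillar procollagens. ADAMTS3 had 38 reads untreated and 116 after DAC (0.159 and 0.487 FPKM), while ADAMTS2 had 1 read in each library. As a class their sum was 0.167 FPKM untreated and 0.608 FPKM after DAC, so even the higher value was under 1 FPKM. ADAMTS15, a protease of versican, had 18 and 78 reads. ADAMTS7, which cuts COMP, had 72 and 152 reads, and ADAMTS13, which cuts von Willebrand factor, had 6 and 25. ADAM12, also called meltrin alpha, went against the others, at 141 reads untreated and 18 after DAC (0.595 and 0.0722 FPKM). Its promoter window and that of ADAMTS14, printed above, are both rich in CG pairs, with 31 and 35. ADAMTS17, the other member with a lower value, had 133 and 119 reads.

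Several of the low members gave only a few reads. ADAM20 had 1 read untreated and 2 after DAC, ADAM30 had 1 and 3, ADAM29 had 1 and 7, and ADAM32 had 0 and 2. In all, 10 of the 46 members were listed at 0 untreated and above 0 after DAC, a pattern of 8.71% of all symbols, with 1 to 63 reads each and a median of 5. Apart from ADAM33, these were ADAM5, ADAM23, ADAM28, ADAM32, ADAMTS5, ADAMTS8, ADAMTS10, ADAMTS19 and ADAMTS20, and none of those had more than 10 reads.

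In HMLER, 4 of the 46 members were listed as higher after DAC, where 7.85% of all symbols were listed: ADAMTS1, ADAMTS6, ADAMTS4 and ADAM33. The remaining 42 were not listed, and the table does not say whether those were lower, did not differ or were below the authors' limits. ADAMTS1 and ADAMTS6 were at 1 FPKM or more in MDA-MB-231, 2 of 16 such members against 10.9% of such symbols. The tables of the lines were normalized separately, so that only ratios within a line are set side by side. ADAMTS1 had 0.988 FPKM untreated and 8.12 FPKM after DAC in HMLER, a ratio of 8.22, where its ratio in MDA-MB-231 was 0.651. ADAMTS6 had 0.574 and 4.64 FPKM, a ratio of 8.09, where its ratio in MDA-MB-231 was 1.64. Both were under 1 FPKM in untreated HMLER cells. The lowest DAC value listed in HMLER was 1.003 FPKM. Any gene under 1 FPKM untreated there, such as these and ADAM33, was thus listed only through its DAC value and had to differ.

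ADAMTS4 (chromosome 1, 161154092 to 161168844, minus strand) had 2.04 and 4.67 FPKM in HMLER, a ratio of 2.29. ADAM33 (chromosome 20, 3648612 to 3662893, minus strand) had 0.421 and 1.18 FPKM, a ratio of 2.80, from 1 of its 2 transcripts. Both had more reads after DAC in MDA-MB-231 as well, but at 0.223 and 0.449 FPKM they did not pass the filter there, and 2 of the 30 members under 1 FPKM were thus listed in HMLER, against 4.43% of such symbols. Higher in both lines by the full rule were 0 of 16 members, against 3.66% of the symbols. ADAMTS9, called higher in MDA-MB-231, was not listed in HMLER. None of the 4 listed genes has exons that overlap another annotated gene.

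**Figure D4:**
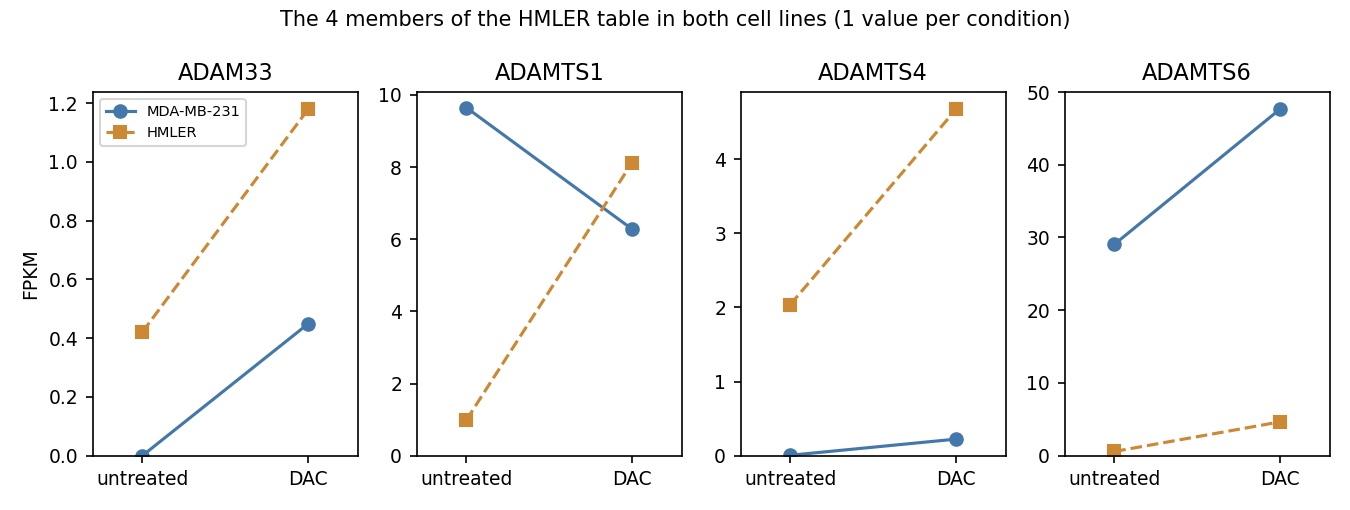
FPKM of ADAM33, ADAMTS1, ADAMTS4 and ADAMTS6 in untreated and DAC-treated MDA-MB-231 (blue circles) and HMLER cells (orange squares), 1 value per condition, each panel on its own linear axis from 0. The tables were normalized separately, so levels compare only within a line. ADAMTS1 is lower after DAC in MDA-MB-231 and higher in HMLER, while the other genes have a higher value after DAC in both lines. None of these genes was called higher in MDA-MB-231, where ADAM33 and ADAMTS4 stayed under 1 FPKM.

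The genes that act with the family were read from a list of 53 inhibitors, activators, regulators and substrates. In MDA-MB-231, 39 of them passed the filter, of which 10 were called higher (25.6%) and 6 lower (15.4%), beside the 10.8% and 4.82% of all symbols. In HMLER 9 of the 53 were listed (17.0%), beside 7.85% of all symbols. That share was 10.9% of symbols at 1 FPKM or more in MDA-MB-231 and 4.43% of those under it. The list was chosen with earlier results known, so none of these shares is support for it. Apart from TIMP1 and TIMP4, the genes called higher reached 1 FPKM in the DAC library only, so they had to differ. Among the inhibitors, TIMP1 had 76.6 FPKM untreated and 158.3 FPKM after DAC (ratio 2.07) and TIMP4 had 1.87 and 3.77 FPKM (ratio 2.01, a call that ended with either pseudocount). TIMP2 stood at 70.7 and 46.1 FPKM (ratio 0.652) and TIMP3, the inhibitor of ADAM17 and several ADAMTS proteases, at 5.73 and 5.39 FPKM (ratio 0.940). RECK, a membrane-anchored inhibitor of ADAM10, was called lower, at 4.09 and 1.81 FPKM (2.26-fold). The call ended with a pseudocount of 1 FPKM and when each library was scaled by its own reads (ratio 0.537). The inhibitors therefore did not share a direction, and none was listed in HMLER.

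The convertase PCSK6 was called lower, at 1.73 and 0.535 FPKM (3.24-fold, a call that ended with a pseudocount of 1 FPKM and with its largest transcript alone), while FURIN, the convertase most often named for ADAM precursors, was at 21.3 and 19.5 FPKM. The cofactors that carry ADAM17 to the cell surface were not called in the deposited scale: RHBDF1 had 11.3 and 17.8 FPKM, RHBDF2 had 6.07 and 5.71 FPKM and FRMD8 had 11.2 and 21.4 FPKM (ratio 1.91, called higher under both other scalings). Of the 6 tetraspanins that guide ADAM10, none was called in MDA-MB-231. In HMLER, TSPAN10 was listed at 1.2 and 2.96 FPKM and TSPAN33 at 0.441 and 1.77 FPKM.

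Of the 21 membrane substrates of ADAM10 or ADAM17, 15 passed the filter, of which 4 were called higher (26.7%) and 3 lower (20.0%). Over all symbols past the filter, 10.8% were called higher and 4.82% lower. These shares are no support for the list, which was chosen with earlier results known. All 4 called higher passed only through the DAC library. ICAM1, a leukocyte adhesion molecule, had 0.447 FPKM (0 to 1.32) untreated and 11.6 FPKM (5.64 to 17.6) after DAC, bounds that did not overlap. CXCL16, a membrane-bound chemokine, had 0.192 and 4.0 FPKM. TNFRSF1B, a receptor of tumour necrosis factor, had 2 and 208 reads (0.0135 and 1.41 FPKM), and CDH2 (N-cadherin) had 16 and 187 reads (0.0902 and 1.06 FPKM). The call of CDH2 ended with a pseudocount of 1 FPKM. ICAM1, CXCL16 and TNFRSF1B were also listed in HMLER: ICAM1 at 6.05 and 25.1 FPKM, CXCL16 at 3.61 and 8.68 FPKM from 1 of its 2 transcripts, and TNFRSF1B at 1.98 and 5.53 FPKM. On the lower side, the receptor kinase AXL had 400.3 and 126.7 FPKM (3.16-fold), the proteoglycan SDC1 had 63.9 and 28.1 FPKM (2.27-fold) and the adhesion molecule L1CAM had 4.11 and 1.71 FPKM (2.40-fold). When each library was scaled by its own reads the calls of SDC1 (ratio 0.535) and L1CAM (ratio 0.507) ended, and that of L1CAM also with a pseudocount of 1 FPKM. SDC4 was listed in HMLER only, at 49.97 and 132.9 FPKM (ratio 2.66), with 72.9 and 76.4 FPKM in MDA-MB-231 (ratio 1.05). For CD44 the HMLER table lists 1 transcript, NM_001001389, at 1.23 and 8.26 FPKM, and says nothing of the other forms. The same transcript had 15.0 and 12.7 FPKM in MDA-MB-231, where all 8 transcripts sum to 212.3 and 138.7 FPKM.

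Of the 10 ADAMTS substrates, 3 passed the filter in MDA-MB-231 and all 3 were called higher. The proteoglycan VCAN (versican) had 0.182 FPKM untreated and 1.61 FPKM after DAC (ratio 8.84), BCAN (brevican) had 0.388 and 1.92 FPKM (ratio 4.94) and COL1A1, a procollagen chain, had 0.853 FPKM (0 to 1.83) and 15.6 FPKM (8.58 to 22.7), a ratio of 18.3. The count is no support for the list, since all 3 passed only through the DAC library. BCAN was also listed in HMLER, at 0.0648 and 1.51 FPKM, as was COMP at 0.0887 and 1.35 FPKM. In the fibrillin network that ADAMTSL proteins and ADAMTS10 bind, FBN2 had 1 and 477 reads (0.00223 and 1.07 FPKM) and was called higher, and LTBP1 had 2.40 and 1.05 FPKM and was called lower (2.29-fold), a call that ended with a pseudocount of 1 FPKM and when each library was scaled by its own reads (ratio 0.532).

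**Figure D5:**
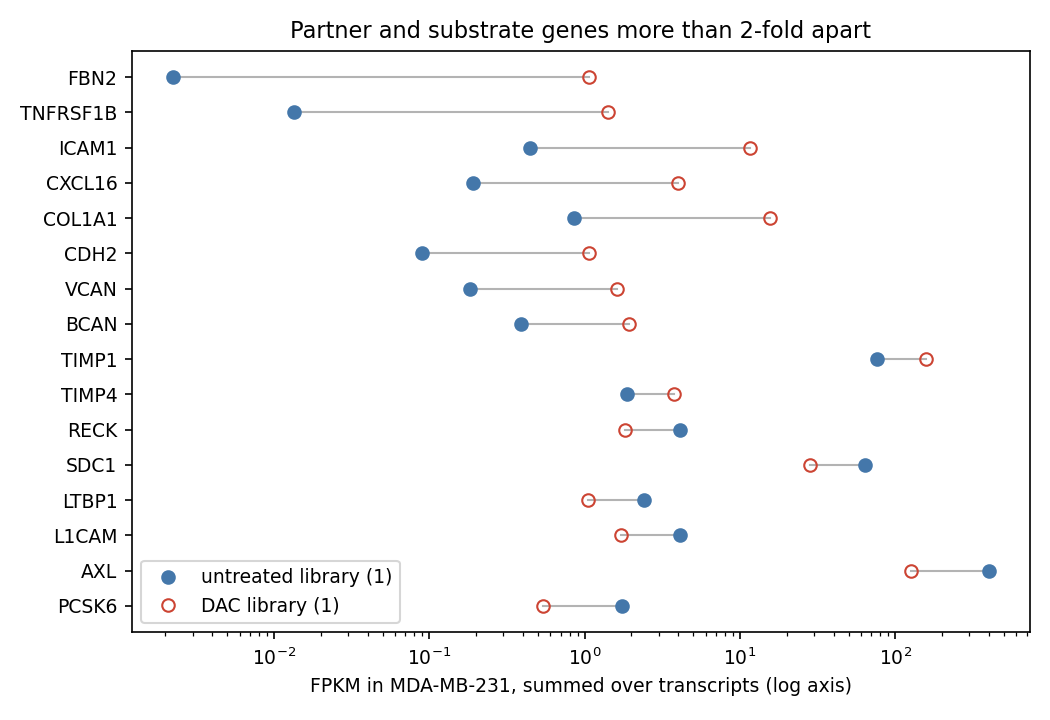
FPKM in MDA-MB-231 on a log axis of the 16 inhibitor, activator and substrate genes more than 2-fold apart, untreated (filled blue) and DAC (open red), 1 library each. The 10 genes called higher are sorted above the 6 called lower, and AXL has the highest level of all.

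The reading of these values depends on how the MDA-MB-231 libraries are scaled. The deposited FPKM gave 1 read nearly the same worth in both libraries although the DAC library held fewer reads on transcripts. When each library was scaled by its own reads, a choice made after the data were seen, every ratio was 1.22 times as large and the median ratio of all symbols was 1.11. Members above and below 1 then numbered 8 and 8 again, ADAMTS9 and ADAMTSL5 (ratio 2.09) were called higher, and no member was called lower, with ADAM19 at a ratio of 0.568. ADAMTS6 then had a ratio of 1.99, and the family sum was no longer lower after DAC. Over all symbols, the higher genes made up 69.1% of the calls as deposited, 77.3% after dividing by the median ratio and 84.3% with this scaling.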

How the data were processed

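RNA-seq libraries (6, polyadenylated RNA) were aligned by the authors to hg19 with TopHat2, and the deposited FPKM values per RefSeq transcript come from Cuffdiff, whose versions are not given in the sources used here. The MDA-MB-231 table held 43497 transcripts with lower and upper bounds. The HMLER table held 2009 transcripts, all with a ratio above 2 and with at least 1.003 FPKM after DAC. Columns of the authors' fold changes, p-values and q-values were not used. The family members, classes and partner genes were chosen with earlier results of these data known.

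FPKM were summed per symbol (Python 3.11.15, pandas 2.3.3, scipy 1.17.1). Values of both conditions are given for members called in MDA-MB-231, listed in HMLER or among the 6 highest, and for partner genes called or listed and all TIMP genes and RECK. One read was worth 0.02345 FPKM (untreated) and 0.0236 FPKM (DAC) at 1 kb, with lengths shortened by 205 bases. All 712 and 736 low values tested came within 0.1 of whole reads. Transcripts under 300 bases were left out of read totals. Exact 95% intervals condition on the sum of reads. Gene positions and overlaps come from GENCODE lifted to GRCh37, and promoters from RefSeq. The counting was checked on simulated data. Alternatives were filters on low values, pseudocounts, the largest transcript and the scaling.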

Additional observations from a re-analysis of the deposited data

Results flagged for a closer look

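ADAMTS1 went in opposite directions in the lines. Its log2 ratio of DAC to untreated FPKM was -0.62 in MDA-MB-231 and 3.04 in HMLER. The tables used here give 1 value per condition, so the difference between the lines was not tested, and the HMLER table lists only transcripts that were higher. In MDA-MB-231 the Cuffdiff bounds of ADAMTS1 overlapped between conditions.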

How the results depend on the processing

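With 1 member higher and 1 lower in MDA-MB-231, counts moved easily. Without the filter 21 were higher and 2 lower (ADAM12 and ADAM19), and 2 were higher in both lines (ADAM33 and ADAMTS4). In that setting 19 partner genes were higher and the median change of members was 0.045. The 21 include members with very few reads, such as ADAMTS2 with 1 read in each library. The share over all symbols without the filter was not counted. Of all detected symbols under 1 FPKM, 81.3% were higher after DAC at any fold. With 1 FPKM required in both conditions there were 0 members higher, 1 listed in HMLER, 2 partner genes higher and a median of -0.32. With 5 FPKM they were 0, 1, 3 (2 partner genes lower) and -0.32. A pseudocount of 1 FPKM left 0 members lower, 2 past 2-fold in HMLER (ADAMTS1 and ADAMTS6) and 2 partner genes lower (SDC1 and AXL). Dividing by the median ratio left 0 members lower and a median of -0.022. Scaling by each library's own reads gave 2 higher, 0 lower, 2 partner genes lower (PCSK6 and AXL) and a median of 0.13. Requiring bounds that do not overlap left 0 higher and 0 lower. The last pair of settings were chosen after seeing the data. The filters change which genes enter and the scalings move every ratio, by construction. ADAM19 stayed more than 2-fold lower under both stricter filters, a pseudocount of 0.1 and the largest transcript, and no recomputed ratio of a called, HMLER-listed or highest member changed sign. No paired analysis was possible because the tables used here give 1 value per condition in each line (the separate HMLER libraries were not used here), and no replicate was left out for the same reason.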
